A study of Sus scrofa with 24 samples.

Results

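Cardiac alpha-actin ACTC1 (ENSSSCG00000004803), the atrial essential myosin light chain MYL4 (ENSSSCG00000017307) and the atrial regulatory myosin light chain MYL7 (ENSSSCG00000016752) were followed through the longissimus dorsi (LD) muscle of young pigs. These 3 genes were taken by name from a table of 22861 genes. The LD is the long muscle of the back, made mostly of fast fibres. The 24 animals were all males, 6 in each of 4 groups: purebred Iberian (IB) newborns, Iberian x Duroc crossbred (IBxDU) newborns, and IB and IBxDU pigs at 4 months of age. Every dam was an Iberian sow, so the crossbreds differed from the purebreds in a Duroc sire, and the older pigs ate the same commercial growing diet. The labels call the newborns postnatal day 1 and the methods of the study say at birth. The newborns came from fewer litters than there were animals and the litter of each library is not given, so each p value below treats littermates as independent.

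Sarcomeres slide thin actin filaments past thick myosin filaments, and their proteins come in versions made by different genes. ACTC1 is the main thin-filament actin of the heart, and in skeletal muscle of other mammals it is made by embryonic and regenerating fibres before the skeletal alpha-actin ACTA1 takes over. Each myosin head carries an essential and a regulatory light chain. MYL4 is the essential light chain of the atrium and of embryonic skeletal muscle, and MYL7 is the regulatory light chain of the atrium. In mature fast fibres the essential chain is made by MYL1, in slow fibres and ventricle by MYL3.

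One RNA library was sequenced per animal, with library totals of 20.0 to 35.9 M recovered from the deposited values. The share of a library's total that fell on the listed genes was 99.3 to 99.5% in 8 libraries and 88.0 to 96.2% in the other 16. The higher-share libraries were 1 of 6 IB and 4 of 6 IBxDU at birth, and 1 of 6 IB and 2 of 6 IBxDU at 4 months. Values are given as scaled RPKM (reads per kilobase of exon and per M of the library total, divided by a scaling factor for each library). These factors were 1.02 to 1.63 in newborns and 0.511 to 0.976 at 4 months. Without them the median of all genes stood 0.91 higher (log2) in newborns, and with them 0.10.

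All 3 genes were higher at birth, yet at very different levels. ACTC1 was among the most abundant transcripts of the newborn muscle and remained detectable at 4 months. MYL4 and MYL7 stood near 1 scaled RPKM at birth. At 4 months MYL4 was lower on average, with levels that overlapped those of newborns, and MYL7 had no reads in nearly every library. None of them was called different between IB and IBxDU.

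ACTC1, on an exon length of 1403 bases, ranked 25th by mean level at birth and 1605th at 4 months among all listed genes. In IB newborns it ran from 1647 through a median of 2534 to 3746 scaled RPKM, and in IBxDU newborns from 1925 through 2067 to 3363. In IB pigs of 4 months it ran from 14.4 through 21.7 to 29.4, and in IBxDU pigs of that age from 17.1 through 21.4 to 133. Every newborn lay far above every older pig, and the animals of one age overlapped between genetic types. Such a separation, every newborn above every older pig, was seen in 6.88% of the 12180 genes tested between the ages. The newborn values rest on 74123 to 202882 reads per library, and those at 4 months on 420 to 3729.

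The fitted difference between birth and 4 months was 6.59 ± 0.25 (log2, SE; 95% interval 6.09 to 7.10), with an adjusted p of 7.08e-17 by limma. ACTC1 stood first by size among the genes higher at birth, and its value without scaling was 7.44, where the median of all genes stood at 0.91. Calls followed the limits that the study set, a p no larger than 0.01 with a change of 1.5-fold or more. Of all genes tested 24.5% were called higher at birth and 20.9% higher at 4 months, so a call alone does not set these genes apart. Within IB the difference was 6.83 ± 0.21 (SE, limma adjusted p = 8.76e-11), where 22.7% of genes were called higher at birth. Within IBxDU it was 6.36 ± 0.42 (limma adjusted p = 2.20e-07), where 19.4% were. ACTC1 stood first by size in both.

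A single pig, IBxDU 702, held the highest ACTC1 level at 4 months. Its value of 133 scaled RPKM came from 3729 reads, and the other 11 pigs of that age lay between 14.4 and 29.4. Without it the IBxDU mean at 4 months went from 39.7 ± 46.0 to 21.0 ± 3.9 scaled RPKM (SD, n = 6 and n = 5), next to 21.9 ± 5.5 in IB (SD, n = 6), and the difference between birth and 4 months was 6.82 over all pigs and 6.80 within IBxDU. The light chains did not share the pattern in this animal, with 1 read of MYL4 and 0 of MYL7. The same pig had the lowest scaled level among the 12 older pigs for 6 of 6 fast fibre sarcomere genes measured, among them the fast troponin TNNC2 (12390 scaled RPKM against 21375 to 31062 in the others) and the fast myosin-binding protein MYBPC2 (1655 against 2415 to 5199). For MYL1 this held only with scaling, as before it pig 732 stood at 11437 RPKM and pig 702 at 12723. ACTA1 was lowest in pig 702 before scaling too (62666 RPKM). Pig 702 also had the highest scaled level of ABRA (440 against 74.6 to 314), an actin-binding activator of serum response factor, and of CSRP3 (663 against 71.3 to 620), a Z-disc protein. Over 55 genes of the lists it was the highest of the 12 in 9 and the lowest in 13, while pig 732 was the highest in 20 and pig 758 the lowest in 14. Its library was of the higher-share kind and had the largest scaling factor at 4 months, 0.976. The part of these in its ACTC1 level was not tested.

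**Figure D1:**
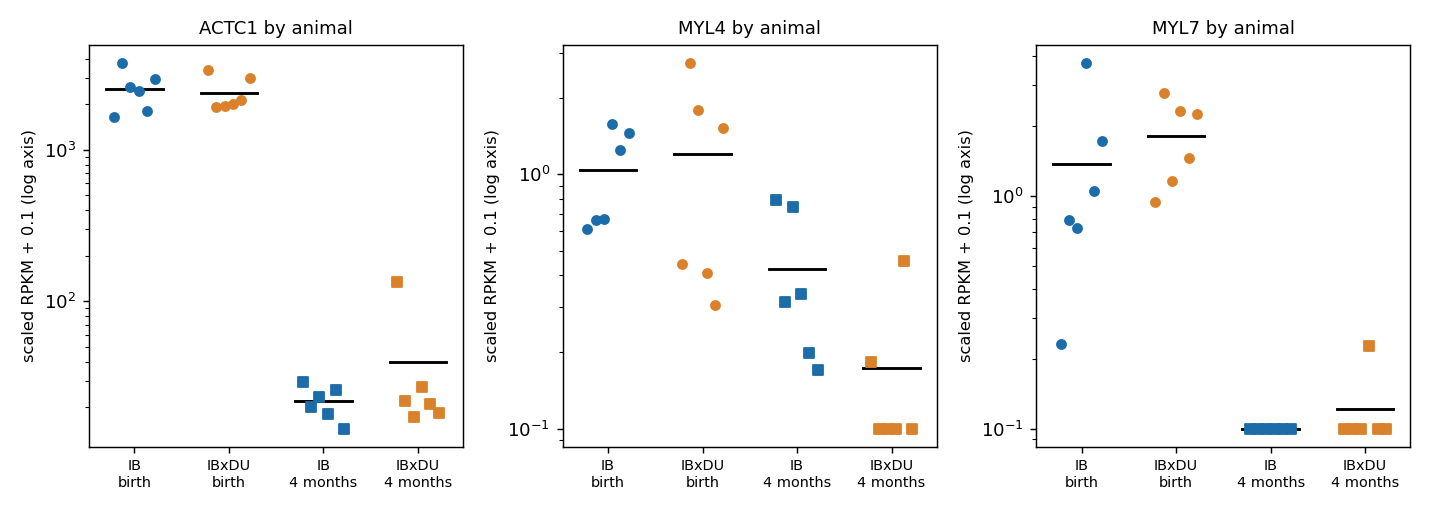
Level of ACTC1, MYL4 and MYL7 in each of the 24 animals, as scaled RPKM + 0.1 on log axes, by genetic type (blue IB, orange IBxDU) and age (circles birth, squares 4 months); bars are group means of 6 animals. For ACTC1 the newborns (1647 to 3746) and older pigs (14.4 to 133) stand apart, MYL4 overlaps between the ages, and MYL7 at 4 months sits at 0 in 11 of 12 pigs.

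Within a library, the share of ACTC1 in the sum of ACTC1 and ACTA1 needs no scaling between libraries. At birth it ran from 4.93 through 6.39 to 13.5% of the summed RPKM of both genes in IB, and from 4.57 through 7.95 to 12.1% in IBxDU. At 4 months it ran from 0.0132 through 0.0188 to 0.0334% in IB, and from 0.0111 through 0.0211 to 0.207% in IBxDU. The lowest newborn thus lay above the highest older pig, which was again IBxDU 702. ACTA1 itself averaged 31577 ± 13391 scaled RPKM at birth and 108793 ± 46291 at 4 months (SD, n = 12 each), a limma difference of -1.81 ± 0.22 (log2, SE, adjusted p = 6.63e-08), so the 2 alpha-actins of striated muscle moved in opposite directions. The ACTA1 difference was -0.96 without scaling and -0.32, no longer called, under quantile normalization. The 2 genes code for nearly identical proteins, and how reads matching several genes were counted is not given in the sources used here. How far ACTA1 reads entered the ACTC1 level at 4 months was not tested. ACTC1 made up 0.311 to 0.718% of the summed RPKM of all genes in newborns.

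**Figure D2:**
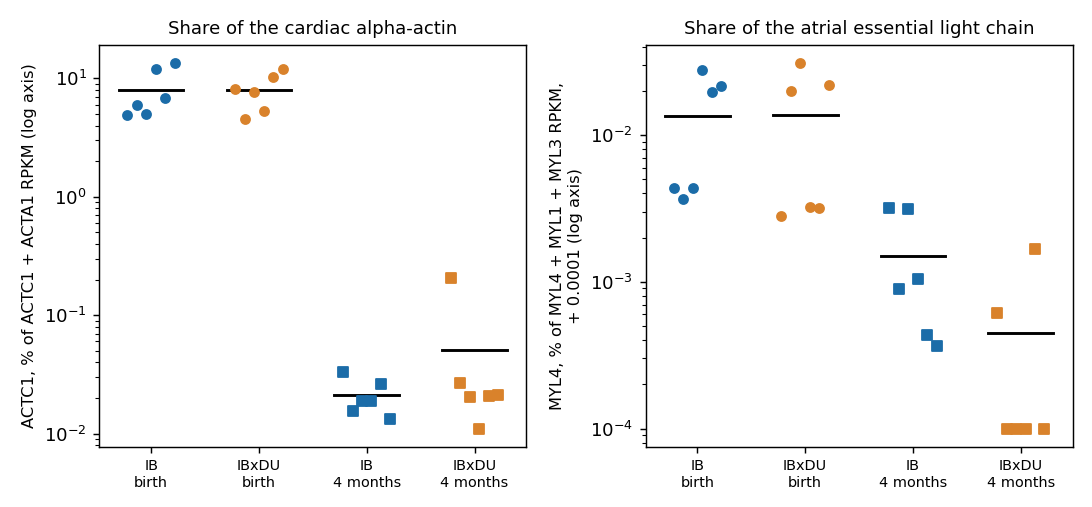
Share of ACTC1 in ACTC1 + ACTA1 RPKM (left) and of MYL4 in MYL4 + MYL1 + MYL3 RPKM (right, 0.0001 added so that 0 can be drawn) in each animal, in percent on log axes; bars are group means of 6 animals. The ACTC1 share was 4.57 to 13.5% in newborns and at most 0.207% at 4 months, while the MYL4 share stayed under 0.031% in all 24 animals and overlapped between the ages.

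MYL4, on 609 bases of exon, was a rare transcript at both ages. In IB newborns it ran from 0.51 through 0.86 to 1.48 scaled RPKM (9 to 40 reads), and in IBxDU newborns from 0.21 through 0.88 to 2.64 (4 to 62 reads). In IB pigs of 4 months it ran from 0.070 through 0.23 to 0.69 (1 to 12 reads), and in IBxDU pigs it was at 0 in 4 of 6, with 1 read in pig 702 and 4 reads in pig 748. The ages overlapped. Older IB pigs 816 (0.69) and 903 (0.64) lay above IB newborns 323, 330 and 345 (0.51 to 0.57). They also lay above IBxDU newborns 402, 426 and 427 (0.21 to 0.34).

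The fitted difference of MYL4 between birth and 4 months was 2.01 ± 0.41 (log2, SE; 95% interval 1.17 to 2.85; limma adjusted p = 0.000125), the 218th of 12180 when genes are ordered from the highest at birth to the highest at 4 months. Within IBxDU it was 2.60 ± 0.59 (limma adjusted p = 0.00265) and within IB 1.42 ± 0.42 (limma adjusted p = 0.0105). The call within IB was lost when any of 4 animals was left out (newborns 431 and 504, older pigs 907 and 909; 1.20 to 1.30) and under quantile normalization (0.86), and that within IBxDU when only the lower-share libraries were used (2.43). The value over all pigs ran from 1.04 to 3.30 as the added constant went from 0.5 to 0.01 RPKM. Since the constant pulls such low values together, the pooled reads give the size of the change more directly. Over all pigs 298 reads at birth stood against 30 at 4 months, a ratio of 5.25 after depth and scaling (95% exact interval 3.60 to 7.91, which covers counting error only). The ratio was 2.92 in IB (1.89 to 4.68, 126 against 25 reads) and 16.7 in IBxDU (7.02 to 52.1, 172 against 5 reads). Pig 748 held 4 of those 5, and without it the IBxDU ratio was 70.5 (12.5 to 2801, 172 reads against 1).

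Among essential light chains MYL4 was marginal throughout. MYL1 averaged 8392 ± 3537 scaled RPKM at birth and 21756 ± 3592 at 4 months, and MYL3 1037 ± 428 and 1965 ± 680 (SD, n = 12 each). Both were called higher at 4 months by limma (-1.47 ± 0.19 with an adjusted p of 2.62e-07, and -0.94 ± 0.20 with 0.000257; log2, SE), the reverse of MYL4. Without scaling they were -0.63, still called, and -0.09, not called. Under quantile normalization they were -0.09 and 0.01, neither called. The size and call of both thus depend on the scaling, and for MYL3 the sign as well. The share of MYL4 in the summed RPKM of the 3 genes was 0.00271 to 0.0309% in newborns and 0 to 0.00308% at 4 months.

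MYL7, on 715 bases of exon, was found almost only at birth. In IB newborns it ran from 0.13 through 0.82 to 3.64 scaled RPKM (3 to 116 reads), and in IBxDU newborns from 0.85 through 1.76 to 2.69 (26 to 74 reads). At 4 months it had 0 reads in all 6 IB pigs and in 5 of 6 IBxDU pigs, with a single read in IBxDU 732 (0.13 scaled RPKM). Every newborn therefore lay above every older pig, although the newborn with 3 reads and the older pig with 1 read were nearly level.

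The fitted difference of MYL7 between the ages was 3.59 ± 0.32 (log2, SE; limma adjusted p = 3.59e-10), the 29th in that order. Genes needed a mean over 0.5 RPKM at either age, and MYL4 and MYL7 passed this filter only through the newborns. With all genes kept the limma adjusted p was 0.000201 for MYL4 and 6.53e-10 for MYL7. Their differences stayed the same by construction, since each gene is fitted by itself and the filter does not enter the scaling factors used. The MYL7 difference was 3.29 ± 0.51 within IB (limma adjusted p = 0.000101) and 3.89 ± 0.33 within IBxDU (limma adjusted p = 1.40e-06). With a level at or near 0 these figures depend on the 0.1 RPKM added before taking logs and are no bound on the change: they ran from 1.80 to 6.54 over all pigs as the added value went from 0.5 to 0.01 RPKM. From the reads, IB had 212 at birth against 0 at 4 months. Against a floor of 3 reads over the older group (0.035 scaled RPKM), MYL7 stood 40.9-fold higher in IB newborns. Figures from this floor leave out the counting error and the spread of the newborns, so they are no strict lower bounds. Newborn 431 held 116 of the 212, and without it the figure was 23.6-fold. In IBxDU 290 reads stood against 1, a ratio of 141 (95% exact interval 25.1 to 5577, counting error only). Over all pigs, 502 against 1 gave 265 (47.4 to 10493). Without pig 732, which held that read, MYL7 in IBxDU newborns stood 42.5-fold above a floor of 3 reads (0.039 scaled RPKM). Over all pigs it was 84.3-fold (floor of 0.018). A floor of 3 reads falls in scaled RPKM as more pigs are pooled, so these figures are not to be compared. A ratio to 1 read and a figure from the floor are different quantities, so the figures of the genetic types are not to be set against each other.

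**Figure D3:**
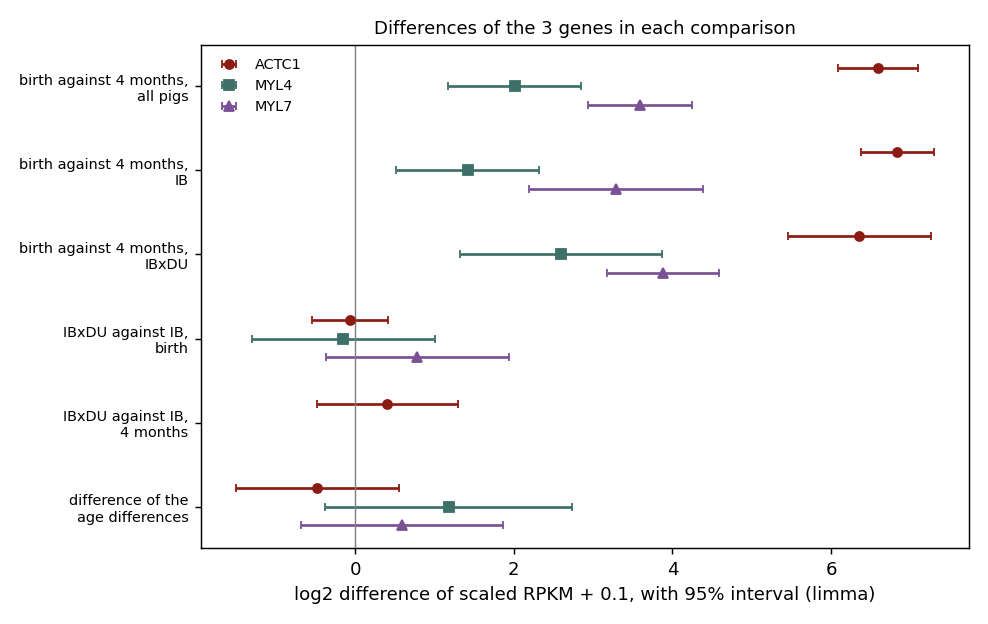
Fitted log2 differences of ACTC1, MYL4 and MYL7 with 95% intervals from limma in each comparison; birth minus 4 months in the upper rows, IBxDU minus IB in the middle, and the difference between the age differences of the genetic types at the bottom. The age differences lie above 0 for all 3 genes (6.59, 2.01 and 3.59 over all pigs), and every interval between genetic types includes 0; MYL4 and MYL7 are not drawn at 4 months, where they did not pass the filter on low values.

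Between genetic types at birth, the levels overlapped for each gene. ACTC1 averaged 2388 ± 621 in IBxDU and 2532 ± 766 in IB, MYL4 1.10 ± 0.98 and 0.94 ± 0.44, and MYL7 1.72 ± 0.73 and 1.28 ± 1.26 scaled RPKM (SD, n = 6 each). The limma differences, IBxDU minus IB, were -0.07 (95% interval -0.54 to 0.41) for ACTC1, -0.15 (-1.30 to 1.01) for MYL4 and 0.79 (-0.37 to 1.94) for MYL7 on the log2 scale. Two-sided exact permutation tests of the 3 genes gave p values of 0.771, 0.790 and 0.232, where the smallest that 6 against 6 allows is 0.00216. In this comparison 1.85% of genes were called higher in IBxDU and 2.36% higher in IB. For ACTC1 the interval, in this scaling and with littermates taken as independent, leaves out a difference as large as 1.5-fold. For the light chains it does not. Without scaling between libraries the ACTC1 difference was 0.12, where the median of all genes moved to 0.16. Under quantile normalization it was 0.23, and the intervals in these other settings are not given here.

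At 4 months ACTC1 was 0.41 higher in IBxDU (log2, limma; 95% interval -0.48 to 1.30; two-sided exact permutation p = 0.582). Without pig 702 this became -0.04. In this comparison 0.997% of genes were called higher in IBxDU and 0.419% higher in IB. MYL4 and MYL7 averaged under 0.5 RPKM in both groups and were left out of this fit. MYL4 had 25 reads over the IB pigs and 5 over the IBxDU pigs, or 0.33 ± 0.27 against 0.073 ± 0.143 scaled RPKM (SD, n = 6 each), and the pigs of the genetic types overlapped. Its two-sided exact permutation p of 0.0325 was the lowest of 6 such comparisons of single genes (3 genes at each age), and with all genes kept the limma adjusted p was 0.522. For its share in the essential light chains the exact permutation p was 0.132. MYL7, with 0 reads against 1, gave no difference detectable at this depth.

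The age difference itself was not called different between the genetic types for any of the 3 genes. The interaction was -0.47 ± 0.50 for ACTC1, 1.18 ± 0.76 for MYL4 and 0.59 ± 0.62 for MYL7 (log2, SE; positive where the excess at birth was larger in IBxDU; limma adjusted p of 0.700, 0.512 and 0.700). Of all genes tested, 1.56% were called in the positive and 2.44% in the negative direction. Without pig 702 the ACTC1 interaction was -0.03.

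Newborns of one group differed in the 3 genes to unequal degrees. The highest ACTC1 level was 2.27 times the lowest in IB and 1.75 times in IBxDU, with coefficients of variation of 30.3 and 26.0%. MYL4 spanned 2.88 times in IB and 12.8 times in IBxDU, and MYL7 27.9 times in IB and 3.18 times in IBxDU. The light chain ranges include the counting error of as few as 3 or 4 reads in the lowest animals.

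Over the 12 newborns none of the 3 pairs of genes had a correlation that passed a two-sided permutation test of the log2 levels. Pearson r was -0.13 for ACTC1 and MYL4 (permutation p = 0.688, adjusted 0.716; Spearman rho = -0.14, permutation p = 0.667, adjusted 0.921). It was 0.12 for ACTC1 and MYL7 (permutation p = 0.716, adjusted 0.716; rho = -0.03, permutation p = 0.921, adjusted 0.921). MYL4 and MYL7 had the highest, 0.41 (permutation p = 0.180, adjusted 0.541; rho = 0.43, permutation p = 0.168, adjusted 0.503). Without the 2 animals farthest from the median of the first gene of each pair r was 0.17, 0.45 and 0.42, and in the 7 lower-share libraries 0.40, 0.32 and 0.50. Within IB it was -0.02, 0.38 and 0.86, and within IBxDU -0.23, -0.38 and 0.39.

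**Figure D4:**
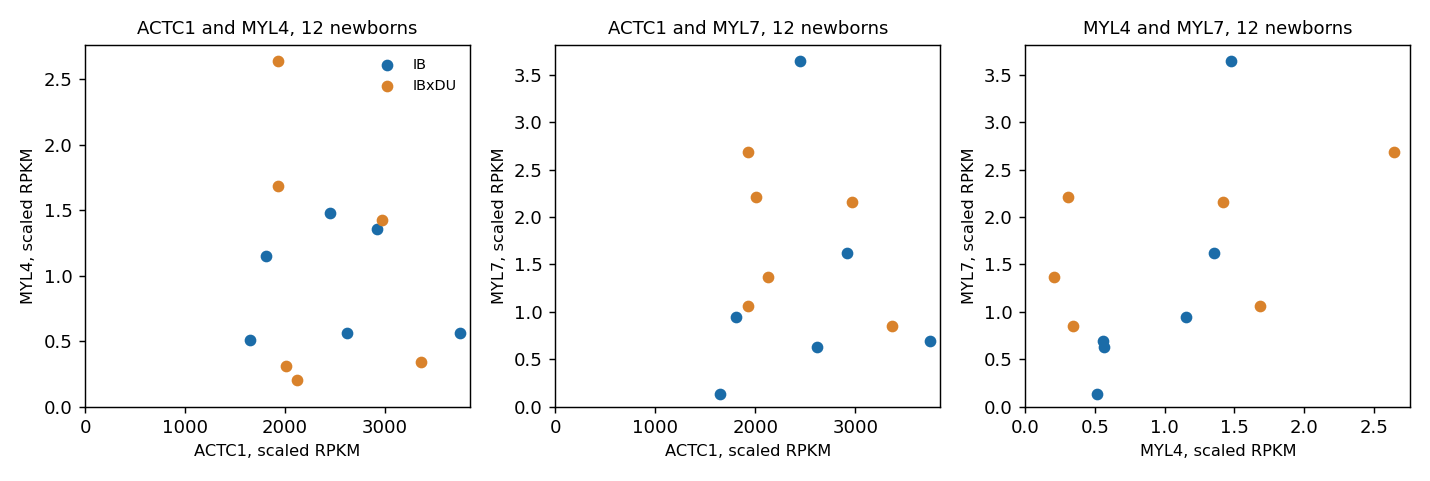
Levels of each pair of the 3 genes in the 12 newborns (blue IB, orange IBxDU), in scaled RPKM on linear axes from 0. IB 431 had the highest MYL7 (3.64) and IBxDU 412 the highest MYL4 (2.64), and no pair had a correlation that passed a permutation test.

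Other genes followed each of the 3 among the newborns. Likeness was taken as Pearson r over the 12 newborns on the log2 scale, less the mean of the genetic type, among 8841 other genes with a symbol; it is a description, and so many genes over 12 animals give high values readily. ACTC1 was followed most closely by FBN1, the microfibril protein fibrillin-1 (r = 0.94), COL6A3, a chain of collagen VI (0.84), TENT5A (0.82), the collagen cross-linking enzyme LOX (0.79) and FRMD4A (0.78). FBN1 ran from 6.74 to 18.5 scaled RPKM in the newborns. MYL4 was followed by MOXD1 (0.93), the keratin KRT8 (0.89), the parathyroid hormone receptor PTH1R (0.88), the regulatory light chain MYL10 (0.87) and the Wnt antagonist SFRP1 (0.87). The MYL4 levels rest on 4 to 62 reads per newborn. MYL7 was followed by PACS1 (0.93), ATP9A (0.91), FRAS1 (0.91), the tyrosine kinase PTK2B (0.91) and BTBD2 (0.90), with 3 to 116 reads per newborn.

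Genes of the same families moved in both directions between the ages. Of the other 5 actins, the cytoplasmic ACTB and ACTG1 were called higher at birth (0.69 and 0.88 on the log2 scale), ACTA1 was called higher at 4 months, and the smooth muscle actins ACTA2 (0.26) and ACTG2 (0.31) were not called. The median of the 5 was 0.31, beside 0.10 for all genes, of which 24.5% were called higher at birth and 20.9% higher at 4 months. ACTA2 was called higher at birth without scaling (1.11) and under quantile normalization (0.70), and ACTG2 without scaling (1.08) but not under quantile normalization (-0.0045). Of 7 other regulatory light chains on the list 3 had an ID and were tested: MYL10 was called higher at birth with 4.18 ± 0.40 (log2, SE, limma adjusted p = 1.50e-09), from 5.48 ± 2.74 to 0.29 ± 0.33 scaled RPKM (SD, n = 12 each), MYL5 was called with 1.28 ± 0.42 from 0.65 to 0.17 (0.72 and not called under quantile normalization), and MYL12A was not called (0.16). MYL2 and MYLPF, the usual regulatory chains of slow and fast fibres, had no ID matched.

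The remaining cardiac-type sarcomere genes did not move as a block. Of 22 on the list 15 had an ID and 12 were tested. Of these 12, 5 were called higher at birth, beside 24.5% of all genes, and 4 higher at 4 months, beside 20.9%. The other 3 were called in neither direction, and the median of the 12 was 0.05 beside 0.10 for all genes. Higher at birth were the ID named MYH7 in the tables of the study (5.14), CSRP3 (2.59), the calcineurin-binding MYOZ2 (1.26), the cardiac troponin T gene TNNT2 (0.70) and the Z-disc crosslinker ACTN2 (0.68). Higher at 4 months were MYL3, the slow and cardiac troponin C gene TNNC1 (-1.75), the M-band gene MYOM2 (-1.39) and the ID named MYH6 (-1.97). That ID is named MYH7 in a table of the study, and MYH6 and MYH7 are near-identical neighbours, so which of the heavy chains each ID counts is uncertain. Without scaling and under quantile normalization alike, 7 of these 12 were called higher at birth and 2 higher at 4 months. Without scaling the median of all genes itself stood at 0.91. The shares of all genes called in these other settings are not given here. The counts of 7 and 2 thus cannot be read as a result about cardiac-type genes. CSRP3 was the one gene of this list called between genetic types at birth, higher in IBxDU (1.16 ± 0.33, log2, SE, limma adjusted p = 0.128). Of all genes 1.85% were called higher in IBxDU at birth and 2.36% higher in IB.

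Of 11 embryonic and perinatal sarcomere genes 9 were tested, of which 3 were called higher at birth and 6 higher at 4 months, with a median of -1.07. Those higher at birth were the embryonic heavy chain MYH3 (2.58 ± 0.24, limma adjusted p = 8.98e-10; from 86.8 to 12.9 scaled RPKM), the cytoskeletal tropomyosin TPM4 (0.71) and TNNT2. The ID named MYH8, the perinatal heavy chain, was called higher at 4 months (-1.68), and in this cluster of similar genes reads could be split wrongly. Also higher at 4 months were TNNI1 (-1.51), TNNC1 (-1.75), MYBPH (-1.07), NEB (-1.02) and MYOM1 (-1.29). NEB was also on the list of skeletal markers and TNNC1 on that of cardiac-type genes. The count is therefore not one of embryonic and perinatal forms alone. All 6 fast fibre sarcomere genes tested, of 13 on the list, were called higher at 4 months, with a median of -1.80. Of all genes 24.5% were called higher at birth and 20.9% higher at 4 months, with a median of 0.10. Without scaling 5 and under quantile normalization 3 of the 6 fast fibre genes kept a call, and the embryonic and perinatal list went to 3 and 2 called higher at 4 months with 3 called higher at birth in each. The shares of all genes called in those settings are not given here, so these counts cannot be read as a result about the lists. The lists share genes, among them TNNT2, TNNC1 and MYL3.

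**Figure D5:**
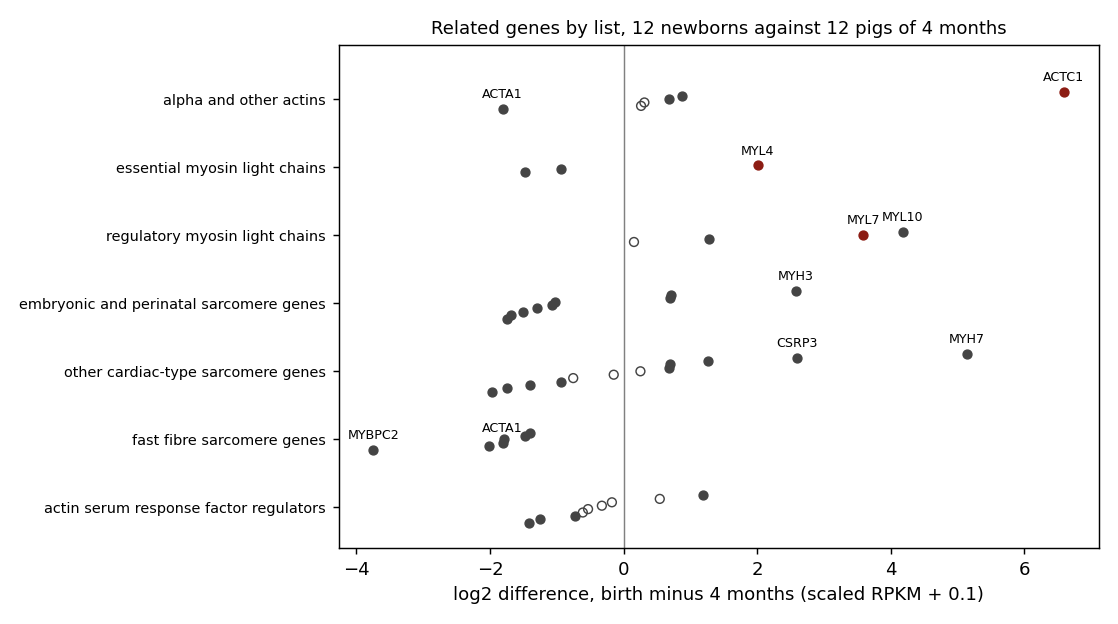
Fitted log2 difference between birth and 4 months (scaled RPKM + 0.1, 12 against 12 pigs) for the genes of each list; red points are ACTC1, MYL4 and MYL7, filled grey points other genes called, open points genes not called. ACTC1 lies farthest to the right at 6.59, the ID named MYH7 at 5.14 and MYL10 at 4.18, and the 6 fast fibre genes all lie left of 0.

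Alpha-actin genes are classic targets of serum response factor and its partners. Of 14 such regulators 9 were tested between the ages: FHL2 was called higher at birth (1.20), MEF2A (-0.73), TEAD1 (-1.25) and TEAD4 (-1.41) higher at 4 months, and SRF (-0.53), MRTFA (-0.17), MEF2C, MEF2D and ABRA (-0.61 ± 0.40) in neither direction. Of all genes 24.5% were called higher at birth and 20.9% higher at 4 months. Without scaling none of the 9 was called higher at 4 months and 3 were called higher at birth, and MEF2A turned to 0.11. The median of all genes stood at 0.91 in that setting. The share of all genes called there is not given here, so these counts cannot be read as a result about the regulators. ABRA was called between genetic types in opposite directions at the 2 ages, -1.91 ± 0.42 at birth and 1.08 ± 0.29 at 4 months (log2, SE). The limma adjusted p values were only 0.102 and 0.285, and the interaction was -2.99 ± 0.54 (limma adjusted p = 0.0453). Of the 9 regulators 2 were called higher in IB at birth, ABRA and MEF2D (-0.59), beside 2.36% of all genes. At 4 months 1, ABRA, was called higher in IBxDU, beside 0.997%. In the interaction 3 of the 9 were called, all in the negative direction, beside 2.44%. ACTC1 had no called difference in these comparisons, and a link between ACTC1 and ABRA was not tested.

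Cardiomyocyte markers split between genes near 0 and genes that LD muscle carried. Of 17 markers 11 had an ID and 5 were tested, of which KCNJ3 was called higher at birth (0.95) and HCN4, SLN and the ID named MYH6 higher at 4 months. The 6 with means under 0.2, NPPB, GATA4, TBX5, TBX20, MYBPC3 and RYR2, reached at most 0.20 scaled RPKM in any newborn and 0.12 in any older pig, and their sum was 0.079 to 0.28 at birth and 0.017 to 0.17 at 4 months. Of the others, GJA5 averaged 3.15 at birth and 2.66 at 4 months, KCNJ3 1.02 and 0.45, and HCN4 0.62 and 7.52 scaled RPKM. The sum over all 11 was 1397 to 2651 at birth and 8055 to 12420 at 4 months, nearly all of it from SLN (means of 1432 and 7637) and the ID named MYH6. The skeletal markers were abundant in every library: 5 of 10 had an ID, and their sum was 28245 to 81418 at birth and 90966 to 315340 at 4 months. Of 10 smooth muscle markers, 8 were measured and 1, SYNPO2, was called between the ages, higher at 4 months (-1.06). Of 13 satellite cell and myoblast markers 7 were measured, with CHRND (1.90) and CHRNG (1.40), subunits of the acetylcholine receptor, called higher at birth, CDH15 (-0.86) higher at 4 months, and a summed level of 37.9 to 79.3 at birth and 38.9 to 74.7 at 4 months. Beside these marker counts, 24.5% of all genes were called higher at birth and 20.9% higher at 4 months. Under quantile normalization the skeletal marker DES turned from -0.70 to 0.64. Without scaling 6 of the 8 smooth muscle and 6 of the 7 satellite cell markers were called higher at birth, where the median of all genes stood at 0.91. The share of all genes called in that setting is not given here, so these counts cannot be read as a result about the cell types. The part of these markers in the differences of ACTC1, MYL4 and MYL7 was not tested. In whole muscle, fewer fibres or cells with a transcript and less of it per cell cannot be told apart.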

How the data were processed

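CLC Genomics Workbench was used by the authors to map paired reads of 76 bases (Sscrofa10.2); they deposited a single RPKM table, called FPKM in their text. The steps between low values gave back each library's total and its whole reads, which came out for all 17846 genes above 0 within 0.001. Whether a read or a read pair was counted is not given in the sources used here. Names of 11450 IDs came from a reference table and 420 from the tables of the study, MYL7 among them. Scaling factors were trimmed means of log ratios to the mean library (30% cut at either end). Genes with a mean over 0.5 RPKM in a compared group were tested on log2(scaled RPKM + 0.1) with limma 3.58.1 (lmFit, eBayes with trend; R 4.3.3), with Benjamini-Hochberg adjustment over all of them; intervals and p values of reads and permutations came from scipy 1.17.1. limma took the place of the count-based test of the study because the unit is RPKM. The code was tested on simulated data. Named were ACTC1, MYL4 and MYL7, the members of 11 lists, and the 5 most alike genes of each; genes, lists and tests were chosen with earlier results of these data known. CSRP3, ABRA, TNNC2 and MYBPC2 were picked for pig 702 after their values were seen. Alternatives were other scaling, filters, pseudocounts, voom on the recovered reads, library kind and each animal left out; the scaling on the compared libraries, the shares within a library, the pooled reads without each animal and the settings of the correlations were added after seeing the data.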

Additional observations from a re-analysis of the deposited data

Results flagged for a closer look

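In groups of 6, an animal was singled out when its gap to the nearest other exceeded Dixon's 95% critical share of the group's range; chance alone does this in about 5% of groups. All cases were IBxDU pigs of 4 months. Pig 702 had ACTC1 at 133 scaled RPKM, 0.207% of ACTC1 + ACTA1 and 0.0189% of the summed RPKM of all genes, and the other 5 lay far below in each. Pig 748 had the highest MYL4, 0.36 scaled RPKM and 0.00158% of the essential light chains, on 4 reads. Pig 732 had the only MYL7 read at that age, 0.13 scaled RPKM. The MYL4 and MYL7 cases rest on 4 reads and 1 read, and the groups they belong to are mostly at 0.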

How the results depend on the processing

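The excess at birth of ACTC1 and MYL7 kept its direction and its call under all 11 alternatives and every left-out animal. This held over all pigs and within each genetic type, and for MYL4 over all pigs. The filters among the alternatives could not move a difference, only its p value. Leaving out single animals gave 6.53 to 6.82 (ACTC1), 1.87 to 2.17 (MYL4) and 3.45 to 3.82 (MYL7) on the log2 scale over all pigs, and the other alternatives 6.54 to 7.44, 1.04 to 3.30 and 1.80 to 6.54. MYL4 lost its call within IB under quantile normalization (0.86) and in 4 of 12 fits with an animal left out (range 1.20 to 1.65), and within IBxDU in the lower-share libraries alone (2.43). The uncalled ACTC1 difference between genetic types turned sign at birth without scaling (0.12, the median of all genes then standing at 0.16), under quantile normalization (0.23) and with library kind as a term (0.065; without IB newborn 330 0.058, the range being -0.18 to 0.06), and at 4 months in the lower-share libraries (-0.11) and without IBxDU 702 (-0.038, the range being -0.04 to 0.55). Its interaction turned in the lower-share libraries (0.025). MYL4 at birth was -0.48 to 0.15 with animals left out. The correlation of ACTC1 and MYL4 turned without scaling (0.0086) and in the lower-share libraries (0.40). The causes were not tested. Counts of called genes moved by over 1.5 times from 4757 to 7370 within IBxDU without scaling, from 517 to 926 (type at birth) and from 152 to 273 (type at 4 months) in the lower-share libraries, and from 497 to 329 without scaling and 1296 in the lower-share libraries for the interaction; with animals left out they were 314 to 917, 116 to 259 and 348 to 814 for the last 3. No paired analysis was possible because no animal was sampled at more than 1 age and litters are not known. Depth limits MYL4 and MYL7: 3 reads are worth 0.087 to 0.19 scaled RPKM of MYL4 in a newborn. In a pig of 4 months they are worth 0.17 to 0.44 of MYL4 and 0.15 to 0.38 of MYL7.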
